A study of Bos taurus with 10 samples.

Results

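Zinc finger genes with a numbered ZNF or ZFP symbol were followed in bovine embryos after knockdown of H1FOO, the linker histone of the oocyte. A symbol was taken if it began with ZNF or ZFP followed by a digit, or with ZFPM, stood on 1 line of the expression table and averaged at least 1 FPKM over all libraries. This gave 205 genes of 308 such symbols, out of 11761 genes of any kind at the same level. Of the others, 101 averaged less than 1 FPKM, and ZNF383 and ZNF75D were left out because each stood on 64 lines with different values. FPKM is the number of sequenced fragments divided by transcript length and by the size of the library, so it is a level per length, relative to the other transcripts of a library.

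The libraries were made from polyadenylated RNA of Bos taurus embryos. KD embryos were injected as zygotes with H1FOO siRNAs, and NC embryos were injected at the same point with negative control siRNAs. Morulae were collected 5.5 days after insemination (3 KD and 3 NC libraries), and 8/16-cell embryos 4 days after insemination (2 KD and 2 NC libraries). All embryos were therefore injected, no uninjected group is described here, and the labels state neither how many embryos made up a library nor whether replicates came from separate collections. The p-values below measure only the spread between these libraries.

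Most ZNF and ZFP proteins bind DNA through zinc fingers, short loops held by a zinc ion between cysteine and histidine side chains. In mammals the largest branch of the family also carries a KRAB domain, which recruits the corepressor TRIM28 (KAP1) and, through it, the histone methyltransferase SETDB1 and the HP1 proteins. Many of these repressors target transposable elements, and their genes often lie next to each other in the genome because the family grew by tandem duplication. The same symbols also cover proteins with other tasks, such as mRNA decay, ribosome assembly and spindle assembly. Close relatives share sequence, and how the authors assigned reads that match several genes is not given in the sources used here, so values of single members of such groups are uncertain.

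H1FOO was checked first. It stood at 0.0610, 0.191 and 0.251 FPKM in KD morulae, against 0.294, 1.05 and 2.17 FPKM in NC morulae. In 8/16-cell embryos it was 0.649 and 0.0736 FPKM in KD, against 50.8 and 10.8 FPKM in NC. The target was lower in every KD library than in every NC library of its stage. H1FOO still did not pass without a replicate block. Its log2 difference was -0.80 in morulae (limma adjusted p = 0.374) and -4.22 in 8/16-cell embryos (limma adjusted p = 0.104). With the block it passed in 8/16-cell embryos (limma adjusted p = 0.0107) and not in morulae (0.144). The summed FPKM of the zinc finger genes ran from 2123 to 2562 in all 10 libraries, which was 0.337% to 0.620% of a library's total, and the lowest share belonged to KD 8/16-cell replicate 1 (0.462% there without the microRNA gene MIR2887). Summed embryo markers (8 of 8 expressed) were 507 to 838 FPKM in KD and 738 to 1042 FPKM in NC morulae, and 336 to 384 FPKM in KD and 392 to 520 FPKM in NC 8/16-cell embryos, where the treatments did not overlap. POU5F1 was the highest of these markers in every morula library (277 to 531 FPKM in KD and 449 to 673 FPKM in NC). In morulae the KD and NC libraries did not overlap for CDX2, GATA3 and NANOG, with log2 differences of -1.83, -1.32 and 1.39, and 0 of the 8 markers passed between KD and NC at either stage (limma, without a replicate block), while 4 passed in morulae with the block. Summed oocyte markers were 14.4 to 24.3 FPKM in KD morulae and 14.5 to 26.7 FPKM in NC morulae, against 90.2 to 119 FPKM in KD and 102 to 195 FPKM in NC 8/16-cell embryos. Summed cumulus and granulosa markers were 66.1 to 150 FPKM in KD and 76.7 to 85.3 FPKM in NC morulae, and 159 to 171 FPKM in KD and 97.1 to 104 FPKM in NC 8/16-cell embryos, with FSHR at 0 throughout. Of the 13 expressed, 10 had a positive and 3 a negative log2 difference between KD and NC morulae, with a median of 0.69. There 0 passed without the block. With it 5 passed, against 11.9% of all genes. CYP11A1, VIM, COL1A1 and GJA1 were higher in KD, and SERPINE2, a large part of the sum, was lower (23.4 to 45.9 FPKM, against 45.0 to 75.8 FPKM in NC). In 8/16-cell embryos 0 passed with the block. Summed sperm markers were 8.39 to 12.4 FPKM in KD and 5.11 to 9.83 FPKM in NC morulae, and 0 to 0.441 FPKM in KD and 2.83 to 6.38 FPKM in NC 8/16-cell embryos. They came mostly from TNP1 (0 to 10.2 FPKM) and TNP2 (0 to 4.19 FPKM), while PRM1, PRM2, ODF1 and AKAP4 stayed at or under 0.907 FPKM. Summed blood markers were 139 to 247 FPKM in KD and 109 to 162 FPKM in NC morulae, and 101 to 117 FPKM in KD and 102 to 122 FPKM in NC 8/16-cell embryos. Nearly all of this was HBA (94.8 to 239 FPKM over the 10 libraries). The other blood markers stayed at or under 5.27 FPKM (CD68), with PTPRC at or under 0.117 FPKM. The 18S ribosomal RNA listed as RN18S1 stood at 9053, 8553 and 11581 FPKM in KD morulae, against 2704, 2983 and 8611 FPKM in NC morulae. The part of these differences in the results below was not tested, beyond a fit with RN18S1 as a covariate.

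The zinc finger transcripts were mostly of low level. The median of their mean levels was 4.93 FPKM, against 9.34 FPKM for all genes tested. Of the 205, 99 averaged at least 5 FPKM, 61 at least 10 FPKM and 7 at least 50 FPKM, and none was listed at 0 in any library. The genes were chosen by their mean FPKM over all 10 libraries, so these levels are a description. The genes just inside the threshold were ZNF319 (1.0009 FPKM), ZNF688 (1.01 FPKM) and ZNF112 (1.02 FPKM), and those just outside were ZNF311 (0.9996 FPKM), ZNF596 (0.993 FPKM) and ZNF599 (0.993 FPKM). There were 11 genes that reached 1 FPKM in the morula groups only (ZNF12, ZNF75A, ZNF112, ZNF146, ZNF177, ZNF260, ZNF275, ZNF350, ZNF555, ZNF567 and ZNF704) and 2 in the 8/16-cell groups only (ZNF184 and ZNF641), so their stage difference was in part built into the choice.

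ZNF296, which in mouse is a partner of the pluripotency factor KLF4, had the highest mean. It stood at 259, 241 and 324 FPKM in KD morulae and at 203, 138 and 187 FPKM in NC morulae, and at 238 and 196 FPKM in KD and 255 and 217 FPKM in NC 8/16-cell embryos. Every KD morula library lay above every NC morula library, while the 8/16-cell groups overlapped. ZFP42 (REX1), a marker of pluripotent cells in mouse and human, came next. Its level was 154, 99.9 and 108 FPKM in KD morulae and 188, 135 and 189 FPKM in NC morulae, and 66.1 and 54.6 FPKM in KD and 106 and 64.6 FPKM in NC 8/16-cell embryos. Morulae of either treatment lay above the 8/16-cell embryos of that treatment, and the treatments overlapped at both stages.

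Several of the other abundant members act on RNA or protein rather than as repressors. They were ZNF622 (88.1 FPKM on average), whose yeast relative acts in assembly of the large ribosomal subunit, ZNF207 (84.4 FPKM), a microtubule binding protein of the spindle also called BuGZ, and ZNF598 (75.0 FPKM), a ubiquitin ligase that acts on collided ribosomes. ZFP91 (43.0 FPKM) is a ubiquitin ligase as well. ZNF394 (101 FPKM), ZNF428 (60.6 FPKM), ZNF574 (41.2 FPKM) and ZNF706 (39.9 FPKM) completed the 10 highest. ZNF207 kept to 91.0 to 97.0 FPKM in KD morulae and 73.2 to 99.9 FPKM in NC morulae, and to 70.4 to 75.3 FPKM in KD and 64.7 to 101 FPKM in NC 8/16-cell embryos, so its groups overlapped between treatments at both stages.

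**Figure D1:**
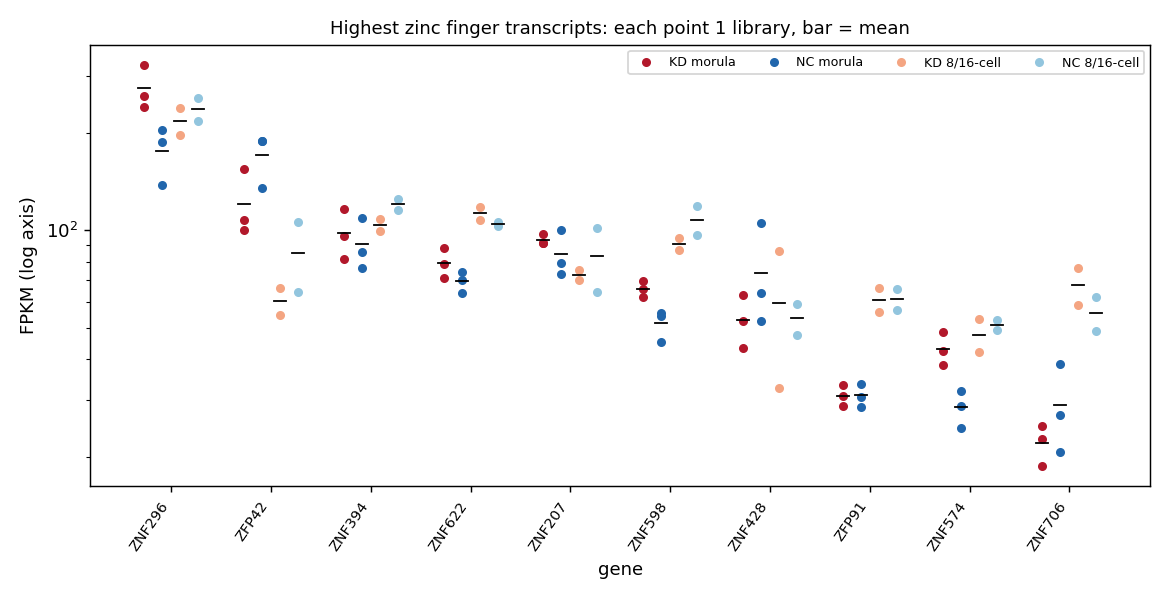
Level in FPKM (log axis) of the 10 zinc finger genes with the highest mean, with 1 point per library and a bar at the group mean, for KD and NC morulae and KD and NC 8/16-cell embryos. ZNF296 in KD morulae (241 to 324 FPKM) lies above NC morulae (138 to 203 FPKM), and ZFP91 and ZNF706 lie lower in morulae than in 8/16-cell embryos.

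Libraries of a group differed slightly less for zinc finger genes than for all genes tested in morulae, in a comparison not matched for level. The log2(FPKM + 1) scale narrows the spread of low values, and the members' median level was 4.93 FPKM, against 9.34 FPKM. The median standard deviation on the log2(FPKM + 1) scale was 0.19 in KD and 0.25 in NC morulae, against 0.22 and 0.29 for all genes tested. In 8/16-cell embryos it was 0.19 in KD and 0.15 in NC, against 0.19 and 0.16 for all genes. These values set how large a difference had to be to stand out with 3 or 2 libraries per group.

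The first question was which zinc finger genes H1FOO knockdown changed in morulae. None of the 205 passed at an adjusted p under 0.05 (limma without a replicate block, Benjamini-Hochberg over all genes tested), where 0.697% of all genes did (82 genes). That number was not stable, since 0 to 41 of all genes passed with any 1 library left out other than KD morula replicate 1, and 527 without that library. At an unadjusted p under 0.05 there were 37 members, 18.0% of them, against 21.2% of all genes. The KD and NC libraries did not overlap for 58 members (28.3%), 31 of them higher (15.1%) and 27 lower in KD (13.2%), against 23.8% of all genes (8.44% higher and 15.3% lower). The median log2 difference of the members was 0.01, and that of all genes tested was -0.08. So the members were spread on both sides of 0. By direction, more of the members than of all genes were higher without overlap and fewer were lower, a difference that was not tested.

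Same-numbered KD and NC morula libraries deviated from their group means together, and adding their number to the model as a block moved this count. With that block 18 members passed, 9 higher and 9 lower in KD, or 8.78%, against 11.9% of all genes (3.89% higher and 8.00% lower). The higher 9 were ZNF280A, ZNF280B, ZNF280C, ZNF296, ZNF574, ZNF576, ZNF608, ZNF664 and ZNF703. The lower 9 were ZNF146, ZNF322, ZNF326, ZNF330, ZNF532, ZNF614, ZNF704, ZNF705A and ZNF740. Of these, ZNF280B, ZNF330, ZNF608, ZNF704 and ZNF740 are named after their values were seen. Leaving out both libraries of replicate 2 kept 1 of the calls, ZNF703, where 393 of all genes passed. Leaving out those of replicate 1 or of replicate 3 kept 0, where 0 and 18 of all genes passed. Without KD morula replicate 1 and without the block, 9 of the 205 members passed, where 527 of all 11761 genes did. The 9 were ZNF146, ZNF280A, ZNF280B, ZNF280C, ZNF326, ZNF330, ZNF532, ZNF614 and ZNF705A. With RN18S1 as a covariate 0 members and 0 of all genes passed, and 23 members had an unadjusted p under 0.05.

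**Figure D2:**
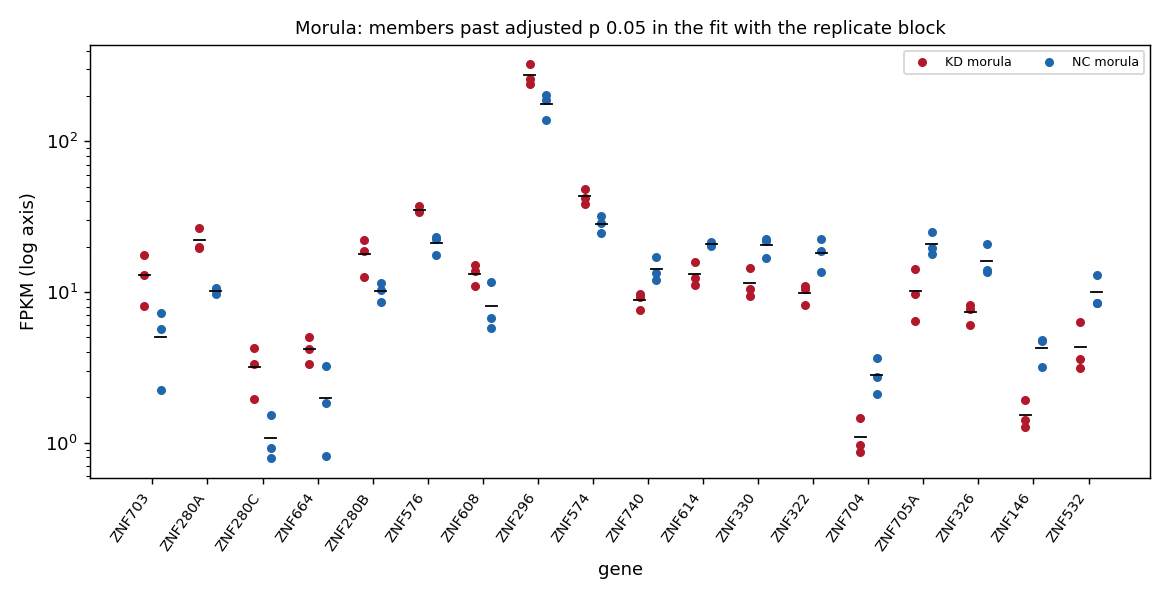
Level in FPKM (log axis) in KD and NC morulae of the 18 zinc finger genes that passed in the fit with the replicate block and not in the fit without it, 1 point per library and a bar at the mean, ordered by log2 difference. The groups do not overlap except for ZNF608, where 1 NC library (11.6 FPKM) lies above the lowest KD library (10.9 FPKM).

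Genes picked by p for KD against NC had to have libraries that did not overlap, so that separation is no further support. Among the genes with higher values in KD morulae, ZNF280A stood at 20.0, 19.4 and 26.6 FPKM in KD, against 10.4, 10.5 and 9.69 FPKM in NC. Replicate 3 was the highest of the KD libraries, and the NC range was narrow. The log2 difference was 1.03 (SE 0.21, n = 3 libraries per group, limma adjusted p = 0.0562, or 0.0221 with the block). ZNF280A, ZNF280B, ZNF280C and ZNF280D are close relatives that may share reads, and all 4 had a positive log2 difference in morulae, 0.40 to 1.03. ZNF280C stood at 1.95, 3.33 and 4.23 FPKM in KD morulae, against 0.785, 1.53 and 0.927 FPKM in NC morulae. For ZNF280B the KD morulae had 12.6, 18.8 and 22.3 FPKM and the NC morulae 8.63, 10.3 and 11.5 FPKM. None of the 4 passed without the block (the smallest adjusted p was 0.0562), and at the 8/16-cell stage their log2 differences lay between -0.18 and 0.10.

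ZNF703, a corepressor of the NLZ group that with ZNF503 is known from Drosophila and vertebrate development, had the largest positive log2 difference of the named members in morulae. Its level was 8.10, 12.9 and 17.7 FPKM in KD, against 2.24, 5.69 and 7.20 FPKM in NC. In both treatments replicate 1 was the lowest, and the log2 difference was 1.24 (SE 0.36, adjusted p = 0.0965, or 0.00548 with the block). ZNF503 stood at 1.62, 2.33 and 2.37 FPKM in KD morulae, against 1.18, 1.57 and 1.31 FPKM in NC morulae, a log2 difference of 0.39 (SE 0.20, adjusted p = 0.292). ZNF576 stood at 34.1, 37.0 and 34.4 FPKM in KD morulae, against 17.6, 22.5 and 23.3 FPKM in NC morulae. ZNF574 stood at 38.5, 48.4 and 42.2 FPKM in KD morulae, against 24.4, 28.7 and 32.0 FPKM in NC morulae. Both sets of libraries were apart, with log2 differences of 0.72 (SE 0.18) and 0.59 (SE 0.16) and adjusted p of 0.0722 and 0.0920. For ZNF296 the log2 difference was 0.65 (SE 0.20, adjusted p = 0.111, or 0.0194 with the block).

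Among the genes with lower values in KD morulae, ZNF326 had the smallest p of all members. It belongs to the DBIRD complex, which in human cells links transcript elongation by RNA polymerase II to splicing. Its level was 7.69, 8.18 and 6.06 FPKM in KD morulae, against 14.0, 20.8 and 13.5 FPKM in NC morulae. The highest KD library was well under the lowest NC library, and the log2 difference was -1.02 (SE 0.20, adjusted p = 0.0560, or 0.00659 with the block). ZNF532, a partner of the chromatin reader ZMYND8 together with ZNF592 and ZNF687, stood at 6.28, 3.57 and 3.15 FPKM in KD morulae, against 12.9, 8.46 and 8.47 FPKM in NC morulae. Its log2 difference was -1.06 (SE 0.26, adjusted p = 0.0724), whereas those of ZNF592 and ZNF687 were 0.24 and 0.23. The 3 relatives thus did not share a direction.

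ZNF146 stood at 1.90, 1.41 and 1.26 FPKM in KD morulae, against 3.16, 4.76 and 4.77 FPKM in NC morulae, a log2 difference of -1.04 (SE 0.22, adjusted p = 0.0612). ZNF705A stood at 14.2, 9.75 and 6.43 FPKM in KD morulae, against 25.0, 17.7 and 19.4 FPKM in NC morulae. For ZNF614 the KD morulae had 15.8, 11.1 and 12.5 FPKM and the NC morulae 20.9, 20.3 and 21.5 FPKM. In each of these the KD and NC ranges were apart, which the choice of named genes required, and each missed the threshold without the block.

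ZNF322, which in mouse takes part in the network of stem cell pluripotency, was lower in KD libraries at both stages. It stood at 8.15, 10.9 and 10.4 FPKM in KD morulae, against 13.6, 22.4 and 18.7 FPKM in NC morulae, and at 15.7 and 8.86 FPKM in KD 8/16-cell embryos, against 22.9 and 19.0 FPKM in NC. The log2 differences were -0.81 (SE 0.24) in morulae and -0.77 (SE 0.30) in 8/16-cell embryos, and neither passed without the block (adjusted p = 0.103 in morulae).

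At the 8/16-cell stage none of the 205 genes passed, where 0.0170% of all genes did (2 genes). At an unadjusted p under 0.05 there were 8 members, against 4.37% of all genes, and the fit with the replicate block also called 0 members, where it called 0.0255% of all genes. With 2 libraries per group, the KD and NC libraries did not overlap for 59 members (28.8%), 24 higher (11.7%) and 35 lower in KD (17.1%), against 33.2% of all genes (19.3% higher and 13.9% lower). The median log2 difference was -0.07 for the members and 0.01 for all genes. After libraries were rescaled to equal sums, the median of all genes itself moved to -0.32 and that of the members to -0.36. Those sums include MIR2887 and were highest in KD 8/16-cell replicate 1 (669836 FPKM).

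ZNF367 had the smallest p at this stage. It stood at 3.89 and 4.39 FPKM in KD 8/16-cell embryos, against 1.23 and 1.41 FPKM in NC, a log2 difference of 1.15 (SE 0.25, n = 2 libraries per group, limma adjusted p = 0.721). In morulae the treatments overlapped at 1.33, 1.85 and 2.25 FPKM in KD and 1.43, 2.19 and 1.65 FPKM in NC. The 8/16-cell KD libraries were thus the high ones of all 10. ZNF800 had 11.0 and 10.1 FPKM in KD 8/16-cell embryos, against 6.78 and 8.31 FPKM in NC, with no overlap. ZNF226, ZNF329 and ZNF74 had log2 differences of 0.37, 0.33 and 0.33 without overlap or passing, and with equal sums those of ZNF329 and ZNF74 turned slightly below 0.

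ZFP36 (tristetraprolin), ZFP36L1 and ZFP36L2 bind AU-rich sequences in mRNA and recruit the machinery that removes the poly(A) tail, and ZFP36L2 is needed for early development in mouse. ZFP36 stood at 3.31 and 17.4 FPKM in KD 8/16-cell embryos, against 21.0 and 25.9 FPKM in NC. Its log2 difference of -1.45 (SE 0.50) did not pass and rested mainly on KD replicate 1, which was the lowest of the 10 libraries. Without KD replicate 2 it was the 1 member that passed at this stage, in a fit where that low library stood alone for KD 8/16-cell embryos and was assumed to vary like the other groups. In morulae ZFP36 was 20.0, 21.2 and 17.9 FPKM in KD, against 13.3, 18.0 and 17.3 FPKM in NC, with overlap. ZFP36L1 had 6.35 and 9.28 FPKM in KD 8/16-cell embryos, against 14.2 and 8.38 FPKM in NC. ZFP36L2 had 12.6 and 17.3 FPKM in KD 8/16-cell embryos, against 19.9 and 19.0 FPKM in NC. Of the pair, ZFP36L2 was lower in both KD libraries and ZFP36L1 overlapped.

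ZNF557, ZNF672 and ZNF382 were the other named members with lower values in KD 8/16-cell embryos. ZNF557 stood at 5.90 and 5.82 FPKM in KD, against 11.0 and 7.87 FPKM in NC. ZNF672 stood at 3.59 and 4.79 FPKM in KD, against 7.43 and 7.06 FPKM in NC. ZNF382 stood at 5.27 and 7.43 FPKM in KD, against 10.5 and 9.27 FPKM in NC. Their log2 differences were -0.59 (SE 0.22), -0.68 (SE 0.26) and -0.58 (SE 0.25), and none passed.

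The KD effects at the 2 stages were compared directly. In the test of the difference between them (interaction) none of the 205 genes passed, where 0.0170% of all genes did, and 18 members had an unadjusted p under 0.05, against 9.39% of all genes. The smallest adjusted p among the members was 0.435, for ZNF326. With the replicate block 0 members and 0.272% of all genes passed. ZFPM1, ZNF197, ZNF664 and ZNF677 had KD libraries above NC libraries with no overlap at both stages. ZNF18, ZNF268, ZNF275, ZNF322, ZNF382, ZNF557 and ZNF704 had KD libraries below NC libraries with no overlap at both. For ZNF335 and ZNF598 the KD libraries were higher in morulae and lower in 8/16-cell embryos, and no member showed the reverse. At single stages 23.8% of all genes in morulae and 33.2% in 8/16-cell embryos had no overlap. The share of all genes without overlap at both stages was not counted, so these lists are a description.

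ZFPM1 (FOG1), a cofactor of GATA factors, is on the first of these lists. It had 7.09, 10.2 and 9.06 FPKM in KD morulae, against 6.89, 6.65 and 6.27 FPKM in NC morulae, and 6.84 and 7.55 FPKM in KD 8/16-cell embryos, against 6.49 and 5.63 FPKM in NC. The ranges were apart by little, with log2 differences of 0.35 (SE 0.17) in morulae and 0.22 (SE 0.21) in 8/16-cell embryos. ZNF598 had 65.6, 69.7 and 62.1 FPKM in KD morulae, against 54.2, 45.1 and 55.7 FPKM in NC morulae, and 87.2 and 94.5 FPKM in KD 8/16-cell embryos, against 118 and 97.0 FPKM in NC. Its difference between the KD effects was 0.58 (SE 0.24, adjusted p = 0.505).

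More members passed between stages than between treatments, as did more genes of any kind. In KD embryos 30 members passed between morulae and 8/16-cell embryos (14.6%), 18 higher and 12 lower in morulae, against 20.0% of all genes (5.22% higher and 14.8% lower). In NC embryos 58 members passed (28.3%), 27 higher and 31 lower in morulae, against 30.8% of all genes (12.6% higher and 18.2% lower). Without the 13 genes that reached 1 FPKM at 1 stage only, which were taken out after the data were seen, 16 were higher and 12 lower in KD, and 22 higher and 30 lower in NC. The median log2 difference of the members was 0.06 in KD and 0.06 in NC, against -0.18 and -0.07 for all genes. Without those 13 genes the members' median was 0.04 in KD and 0.01 in NC. The expression columns of the stages may have been made apart, since genes that stand on several lines are repeated in a different pattern in the columns of each stage, and any difference in processing cannot be told apart from stage.

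The balance of directions depended on the scaling. In KD embryos it was 22 higher and 1 lower with equal sums, 33 and 7 with quantile normalization, and 27 and 5 with median-ratio scaling. In the same order 1329, 2148 and 1900 of all genes passed, against 2355 in the reported fit. Those scalings moved the median of all genes in KD to 0.21, -0.01 and -0.01, and the members' differences in those fits are relative to these medians. In NC embryos it was 39 higher and 26 lower with quantile normalization and 21 and 16 with equal sums. Of all genes 3814 and 2572 passed there, against 3626 in the reported fit. The sums include MIR2887, and that of KD 8/16-cell replicate 1 was 669836 FPKM, against 345464 to 456442 FPKM in the other libraries. The zinc finger share of that library was 0.337% with MIR2887 and 0.462% without it. Equal sums without MIR2887 were not fitted. Single libraries mattered too. In KD the count was 9 without KD morula replicate 1 and 13 without KD morula replicate 2, where 1072 and 1504 of all genes passed. Without an 8/16-cell library its group held 1 library, so the members' median log2 difference is given instead. In KD that median was 0.02 without KD 8/16-cell replicate 1 and 0.14 without KD 8/16-cell replicate 2. In NC it was 0.08 without NC 8/16-cell replicate 1 and -0.03 without NC 8/16-cell replicate 2. Under every left-out library in turn, 3 of the 20 named calls in KD (ZFP91, ZNF614 and ZNF706) and 8 of the 20 in NC (ZNF146, ZNF276, ZNF384, ZNF614, ZNF653, ZNF668, ZNF672 and ZNF705A) still passed, of which ZNF146 entered through the morula groups only.

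The stage differences in KD and in NC were taken from separate libraries. Their p-values came from the same fit, which pools the variance of each gene over all groups. Leaving out KD morula replicate 2 moved the count in NC from 58 to 45, and that of all genes from 3626 to 3213. Calls in both treatments are therefore not independent of each other. Of the members, 21 passed in both treatments, which is 70.0% of the KD calls and 36.2% of the NC calls (68.5% and 44.5% for all genes). Of these, 13 were higher and 8 lower in morulae in both, and 0 went in opposite directions. The sign was the same for 159 of the 205 (77.6%, against 77.0% of all genes). Of 37 members that passed in NC but not in KD, 36 had the same sign in KD, and the exception was ZNF576, at 0.30 in KD and -0.75 in NC. Of the 9 that passed in KD but not in NC, 5 had the same sign in NC, and ZNF280A, ZNF326, ZNF367 and ZNF800 did not. That a gene passed in 1 treatment does not show that the treatments differ, since no interaction passed.

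**Figure D3:**
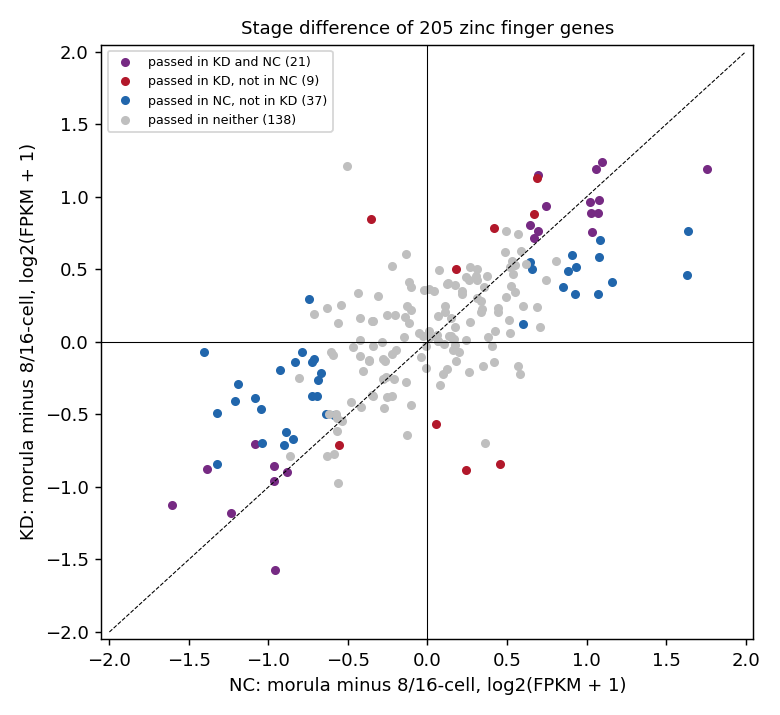
Stage difference of the 205 zinc finger genes, morula minus 8/16-cell on the log2(FPKM + 1) scale, in KD embryos (vertical axis) against NC embryos (horizontal axis), with 1 point per gene coloured by the treatment in which it passed and a dashed line of equality. The 21 genes that passed in both treatments have the same sign on both axes, and 138 genes passed in neither.

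ZNF614 rose most in NC morulae and was among the 3 largest rises in KD morulae. It stood at 15.8, 11.1 and 12.5 FPKM in KD morulae, against 5.83 and 4.50 FPKM in KD 8/16-cell embryos, and at 20.9, 20.3 and 21.5 FPKM in NC morulae, against 5.99 and 4.98 FPKM in NC 8/16-cell embryos. The stage difference was 1.19 (SE 0.20, adjusted p = 0.00392) in KD and 1.76 (SE 0.20, adjusted p = 0.000386) in NC. ZNF705A rose by 1.64 (SE 0.29, adjusted p = 0.00267) in NC, where it had 25.0, 17.7 and 19.4 FPKM in morulae, against 6.35 and 5.51 FPKM in 8/16-cell embryos. In KD its difference was 0.77 (SE 0.29, adjusted p = 0.0801). ZNF12 is one of the genes that entered through the morula groups only, so its stage values are a description. It stood at 2.70, 3.40 and 2.78 FPKM in KD morulae, against 0.642 and 0.811 FPKM in KD 8/16-cell embryos, and at 2.07, 4.30 and 2.46 FPKM in NC morulae, against 1.02 and 0.683 FPKM in NC 8/16-cell embryos. At such levels the log2(FPKM + 1) scale understates the fold, and the difference was 1.06 in NC.

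ZFP42 rose by 0.97 (SE 0.27, adjusted p = 0.0305) in KD and by 1.02 (SE 0.27, adjusted p = 0.0167) in NC. Of the other members of the pluripotency list, 6 of which are expressed, ZNF462 fell by 0.93 in NC (adjusted p = 0.0387) and ZNF281, ZNF296, ZNF322 and ZNF398 did not pass in either treatment. ZNF445, which with ZFP57 keeps DNA methylation at imprinted genes in mouse and human, rose in both treatments. It stood at 9.08, 8.51 and 7.30 FPKM in KD morulae, against 4.15 and 3.86 FPKM in KD 8/16-cell embryos, and at 5.84, 10.8 and 6.98 FPKM in NC morulae, against 3.45 and 3.03 FPKM in NC 8/16-cell embryos. The difference was 0.89 (SE 0.24, adjusted p = 0.0278) in KD and 1.03 (SE 0.24, adjusted p = 0.00996) in NC. ZFP57 itself stood at 28.0, 27.6 and 24.6 FPKM in KD morulae, against 19.1 and 18.0 FPKM in KD 8/16-cell embryos, and at 24.3, 27.4 and 24.4 FPKM in NC morulae, against 22.6 and 21.8 FPKM in NC 8/16-cell embryos. It rose in KD by 0.50 (SE 0.15, adjusted p = 0.0420), and its 0.18 in NC did not pass.

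Among members that fell, ZFP91 moved by the same amount in both treatments. It stood at 28.6, 33.3 and 30.8 FPKM in KD morulae, against 55.9 and 66.3 FPKM in KD 8/16-cell embryos, and at 28.5, 33.6 and 30.7 FPKM in NC morulae, against 65.6 and 56.8 FPKM in NC 8/16-cell embryos. The difference was -0.96 (SE 0.17) in KD and -0.96 (SE 0.17) in NC, with adjusted p of 0.00477 and 0.00249. ZNF706, a small protein with a single zinc finger, had 18.7, 22.7 and 24.8 FPKM in KD morulae, against 76.6 and 58.9 FPKM in KD 8/16-cell embryos, and 38.7, 20.7 and 27.0 FPKM in NC morulae, against 62.1 and 48.8 FPKM in NC 8/16-cell embryos. It fell by 1.57 (SE 0.26, adjusted p = 0.00385) in KD, the largest fall there, and by 0.96 (SE 0.26, adjusted p = 0.0185) in NC. ZNF513 had the largest fall in NC, at 4.18, 5.22 and 2.82 FPKM in morulae, against 11.7 and 17.0 FPKM in 8/16-cell embryos. In KD it was 5.60, 6.12 and 6.44 FPKM in morulae, against 9.05 and 22.4 FPKM in 8/16-cell embryos, so the early KD libraries were far apart.

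ZNF653, ZNF276, ZNF668, ZNF436 and ZNF18 also fell in both treatments. Their stage differences were -0.71 to -1.18 in KD and -0.88 to -1.38 in NC. ZNF703 and ZNF503 fell in NC by 1.41 (SE 0.40, adjusted p = 0.0233) and by 1.04 (SE 0.23, adjusted p = 0.00726). In KD their differences were -0.07 and -0.69 and did not pass. ZNF384, a DNA-binding activator, stood at 13.7, 11.2 and 9.62 FPKM in NC morulae, against 29.0 and 26.4 FPKM in NC 8/16-cell embryos, and fell by 1.21 (SE 0.24, adjusted p = 0.00468). In KD it was 13.7, 17.8 and 14.4 FPKM in morulae, against 15.7 and 26.8 FPKM in 8/16-cell embryos, with overlap.

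The role lists are small, and their counts stand beside 20.0% of all genes passing in KD (5.22% higher and 14.8% lower) and 30.8% in NC (12.6% higher and 18.2% lower). The RNA and ribosome list had 12 expressed members, of which 0 rose and 2 fell in KD (ZNF326 and ZNF706) and 0 rose and 3 fell in NC (ZNF598, ZNF622 and ZNF706), which is 16.7% and 25.0% of the list. Of the 12 chromatin cofactors 0 passed in KD, and in NC ZNF532 rose and ZNF592 fell. Of the 9 DNA-binding activators 0 passed in KD, and in NC ZNF24 rose while ZNF384 and ZFP64 fell. Of the 4 members linked to mitosis and genome upkeep, ZFP91 and ZNF668 fell in both treatments. The 3 imprint and heterochromatin members gave 2 rises in KD and 1 in NC, and ZNF274, which recruits SETDB1 in human cells, did not pass. Of ZNF408, ZNF503 and ZNF703, which were listed apart, 0 passed in KD and 3 fell in NC. In none of these role lists did a member pass between KD and NC at either stage without the block. In bulk embryos fewer cells of a type and less RNA per cell cannot be told apart.

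The corepressor side of the KRAB pathway was read from a list of 20 expressed genes. TRIM28 was abundant, at 530, 450 and 616 FPKM in KD morulae and 430, 320 and 577 FPKM in NC morulae, and at 256 and 243 FPKM in KD and 264 and 230 FPKM in NC 8/16-cell embryos. It rose with stage by 1.08 (SE 0.25, adjusted p = 0.0169) in KD and by 0.80 (SE 0.25, adjusted p = 0.0357) in NC. In KD, MORC2, ATRX and DNMT1 rose as well and UHRF1 fell, and in NC, CBX1, CBX3, MORC2 and ATRX rose and UHRF1 fell, with the other genes of the list not passing. That is 25.0% of the list in KD and 30.0% in NC, against 20.0% and 30.8% of all genes. Between KD and NC morulae 1 of the 20 passed, CBX3, an HP1 protein, where 0.697% of all genes passed. It stood at 36.8, 26.3 and 21.9 FPKM in KD morulae, against 61.2, 48.9 and 64.1 FPKM in NC morulae, and the log2 difference was -1.03 (SE 0.20, adjusted p = 0.0468). The call was lost when any 1 library other than KD morula replicate 1 was left out (adjusted p 0.0530 to 0.201, and 0.0197 without that library), with RN18S1 as a covariate (0.333) and with morulae fitted alone (0.151). With the block CBX3 passed (0.00892), and HDAC1 and HDAC2 passed too, with log2 differences of -0.59 and -0.84. That is 15.0% of the list, against 11.9% of all genes with the block (3.89% higher and 8.00% lower). The treatments overlapped for HDAC1, where 1 KD library (112 FPKM) lay above the lowest NC library (109 FPKM). At the 8/16-cell stage 0 of the 20 passed.

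Zinc finger genes that neighbour one another were set beside those that do not. Neighbours were read from gene order in the RefSeq annotation, which matched 202 of the 205 by symbol, and this division was made after the data were seen, so it is described without a test. In all, 85 members stood next to another zinc finger gene and 117 stood apart. Their median levels were 3.26 and 6.30 FPKM. The median stage difference of the neighbouring members was 0.23 in KD and 0.15 in NC, and of those apart it was -0.06 in KD and -0.12 in NC. Of the neighbouring members 9 rose and 1 fell in KD (11.8% in all), and 14 rose and 5 fell in NC (22.4%). Of those apart 9 rose and 11 fell in KD (17.1%), and 13 rose and 26 fell in NC (33.3%). Of all genes 20.0% passed in KD (5.22% higher and 14.8% lower) and 30.8% in NC (12.6% higher and 18.2% lower). The neighbouring class holds 8 of the 13 genes that reached 1 FPKM at 1 stage only. Without these, 7 rose and 1 fell in KD and 10 rose and 5 fell in NC, with medians of 0.18 and 0.11. The 27 members with a zinc finger gene on both sides had medians of 0.33 in KD and 0.31 in NC, or 0.24 and 0.25 without the 3 of them that reached 1 FPKM at 1 stage only. Between KD and NC morulae the medians were 0.03 for neighbours and 0.00 for those apart.

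**Figure D4:**
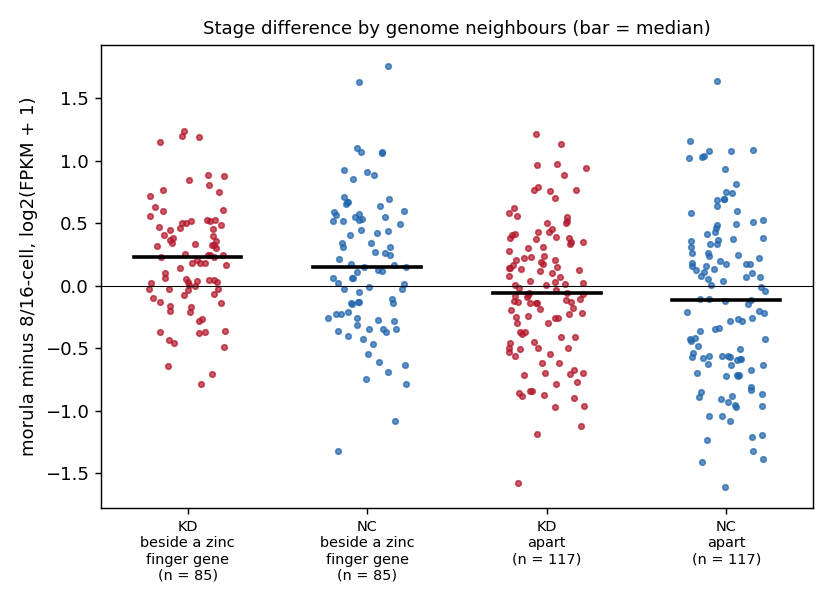
Stage difference (morula minus 8/16-cell, log2(FPKM + 1)) of zinc finger genes next to another zinc finger gene (n = 85) and of those apart (n = 117), in KD and NC embryos, with 1 point per gene, spread sideways at random, and a bar at the median. The medians are 0.23 in KD and 0.15 in NC for neighbouring genes, and -0.06 in KD and -0.12 in NC for those apart, and the points of the classes overlap widely.

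The longest expressed runs held 6 members each. The run of ZNF146, ZNF565, ZNF567, ZNF382, ZNF260 and ZNF566 had positive stage differences in both treatments. ZNF146, ZNF260 and ZNF567 entered through the morula groups only, so for them that direction was in part built into the choice. Of the others, ZNF382 rose in KD, and ZNF382, ZNF565 and ZNF566 rose in NC. ZNF382 was by far the highest of them. It stood at 20.6, 12.2 and 16.6 FPKM in KD morulae, against 5.27 and 7.43 FPKM in KD 8/16-cell embryos, and at 25.2, 21.1 and 20.9 FPKM in NC morulae, against 10.5 and 9.27 FPKM in NC 8/16-cell embryos. In KD against NC morulae 6 of 6 members had negative log2 differences, with a median of -0.23, a range of -1.04 to -0.01 and 0 passing. In the run of ZNF398, ZNF282, ZNF212, ZNF783, ZNF777 and ZNF746, 5 of 6 members were above 0 between stages in KD and 4 of 6 in NC, with 0 passing. In the run of ZNF45, ZNF226, ZNF227, ZNF235 and ZNF112, 1 of 5 members was above 0 in KD against NC morulae, with a median of -0.14 and 0 passing. Between stages 4 of 5 of them were above 0 in KD and 5 of 5 in NC, with 1 rise in each. ZNF112 of that run entered through the morula groups only. In the run of ZNF581, ZNF580, ZNF784, ZNF865 and ZNF524, 5 of 5 members were above 0 in KD against NC morulae, with a median of 0.23 and 0 passing. Neighbours in a run were not tested as a set.

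**Figure D5:**
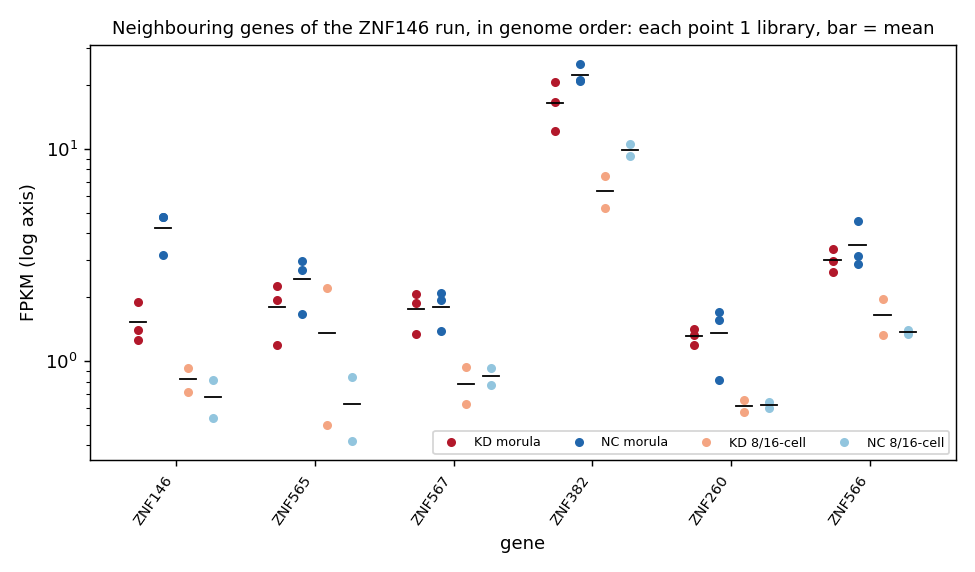
Level in FPKM (log axis) of 6 neighbouring zinc finger genes in their genome order, 1 point per library and a bar at the mean, for KD and NC morulae and KD and NC 8/16-cell embryos. ZNF382 reaches 12.2 to 25.2 FPKM in morulae, the others stay under 5 FPKM, and for ZNF565 KD 8/16-cell replicate 1 (2.22 FPKM) lies within the morula range.

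Other families with zinc fingers were read at the same threshold, with no test of their difference from the ZNF and ZFP genes. Of 30 ZBTB genes, which pair zinc fingers with a BTB domain, 0 rose and 5 fell in KD and 1 rose and 7 fell in NC, with medians of -0.20 and -0.29. That is 16.7% in KD and 26.7% in NC, against 20.0% and 30.8% of all genes. Of 13 ZSCAN and ZKSCAN genes, which carry a SCAN domain, 0 passed in KD and 0 rose and 2 fell in NC, with medians of 0.18 and -0.19. No ZBTB, ZSCAN or ZKSCAN gene passed between KD and NC at either stage without the block.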

How the data were processed

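Per the labels' protocols, RNA was taken from embryos, selected on oligo(dT) beads and sequenced. The tools Cufflinks, featureCounts, HISAT2 and Trimmomatic and the build ARS-UCD1.2 (bosTau9) are named per the submitters' processing notes; versions, steps, and whether the libraries keep strand are not given in the sources used here. The authors deposited FPKM values in a table of 39911 lines and 28781 symbols. Counts and read depth are unknown here, so no interval for counting error is given; low values put depth relative to NC 8/16-cell replicate 1 between 0.71 and 1.44. The 81 symbols on several lines were left out. Testing covered the 11761 genes that averaged 1 FPKM or more, on log2(FPKM + 1) with limma 3.58.1 (R 4.3.3, trend, 4 group means, 10 libraries), two-sided, with Benjamini-Hochberg adjustment over all of them and a threshold of 0.05. The fit was tested on simulated data.

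In morulae, KD and NC libraries of the same number deviated together from their group means in all 3 pairs (r = 0.370, 0.325 and 0.312). At the 8/16-cell stage r was 0.056. The main fit has no term for the numbers. The fit with the replicate block has such a term within each stage for the KD against NC and interaction results, so it pairs the 8/16-cell libraries too. Members, lists and tests were chosen with earlier results of these data known. Named were, per comparison, up to 10 passing members with the largest difference in each direction and no overlap, filled to 5 by smallest p among members without overlap and at least 2 FPKM, plus the 10 highest, the threshold genes, the role and corepressor lists and H1FOO. Alternatives changed the pseudocount, filter, scaling, trend, block, RN18S1 and libraries. The RefSeq annotation (ARS-UCD2.0) gave names and gene order only. Protein domains and sequences were not analysed here.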

Additional observations from a re-analysis of the deposited data

How the results depend on the processing

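Counts are of zinc finger genes passing an adjusted p under 0.05, and medians are of their log2 differences. For KD against NC in morulae 0 passed as reported, 2 with a minimum mean of 5 FPKM (ZNF280A and ZNF326), 2 with quantile normalization (ZNF280A and ZNF296), 1 with median-ratio scaling (ZNF280A, median 0.0823), 18 with the replicate block, 1 with the replicate block without replicate 2, and 0 to 9 with 1 library left out, the 9 without KD morula replicate 1. In the same order 82, 139, 69, 80, 1398 and 393 of all genes passed, and 527 without KD morula replicate 1. For 8/16-cell embryos the count was 0 to 1 with 1 library left out (ZFP36, without KD 8/16-cell replicate 2), and the median was -0.365 with equal sums and -0.133 to -0.0103 with 1 library left out. For stage in KD the count was 14 with no filter and 6 to 37 with 1 library left out, and the median was 0.44 with equal sums, 0.23 with quantile normalization, 0.23 with median-ratio scaling, 0.14 with RN18S1 as a covariate and 0.0234 to 0.144 with 1 library left out. For stage in NC the count was 33 of the 99 members tested with a minimum mean of 5 FPKM, where 2594 genes of any kind passed. It was 37 with equal sums, where 2572 genes passed, and 43 to 56 with 1 morula library left out, where 2529 to 3657 did. The median was -0.0288, 0.130 and 0.132 with the minimum of 5 FPKM, quantile and median-ratio scaling, and -0.0281 to 0.122 with 1 library left out. For the difference of the KD effects the median was 0.40, 0.15 and 0.16 with equal sums, quantile and median-ratio scaling, and 1 gene passed without KD 8/16-cell replicate 2. ZNF329 (-0.00475) and ZNF74 (-0.0323) reversed with equal sums at the 8/16-cell stage. The cause of these shifts was not tested. The replicate block gave 45 for stage in KD (30.0% of all genes passed) and 74 for stage in NC (39.0% of all genes passed), where the numbers are not known to pair libraries. Besides the 18 for KD against NC in morulae, it changed no count over all 205 members by over 1.5 times. Of the single-gene values, 1194 kept direction and side of the threshold, 121 lost it, 34 gained it and 2 reversed. Alternatives with a minimum of 5 FPKM covered 99 of the 205 members and gave no value for genes under it, and classes by protein domain were not run. With 2 or 3 libraries per group and unknown depth, small differences were not detectable.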
